A study of Mus musculus with 15 samples.

Results

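The ATF4 stress response core is a set of 10 genes at the centre of the integrated stress response, Atf4, Ddit3, Trib3, Chac1, Ppp1r15a, Atf5, Sesn2, Nupr1, Cebpb and Asns, out of 46118 genes in each library. Its members were listed by name and read from the exon read counts of each library. They were chosen by name with earlier exon read results of these same libraries already known, so the p-values below, adjusted over all genes, set the size of a change against the spread between libraries and are not independent support for the choice of genes. The 15 libraries were RNA-seq of haematopoietic stem cells (HSCs) from the bone marrow of wild-type C57BL/6 mice aged 8 to 10 weeks, each made from 100 sorted cells. HSCs taken 4 days after 5-fluorouracil (5-FU day4, 4 libraries) were set against HSCs of untreated mice (Untreated, 4 libraries). HSCs cultured with nifedipine (Nifedipine, 4 libraries) were set against HSCs cultured without it (Control, 3 libraries), and both kinds of cultured cell were sorted again within 3 divisions. 5-FU is an antimetabolite that kills dividing blood cells and draws HSCs into cycle, and nifedipine blocks L-type voltage-gated calcium channels. Neither the dose nor the length of culture is given in the sources used here.

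ATF4 is a basic leucine zipper (bZIP) transcription factor. Kinases that sense amino acid shortage, unfolded protein in the endoplasmic reticulum, haem shortage or double-stranded RNA phosphorylate the alpha subunit of the initiation factor eIF2, which lowers translation of most messages while favouring that of Atf4. ATF4 then binds composite C/EBP-ATF sites, often with a C/EBP partner, and raises genes of amino acid supply, redox defence and cell death. Since control of ATF4 is largely translational, the RNA level of Atf4 measured here is not a measure of ATF4 protein. Protein and eIF2alpha phosphorylation were not analysed here.

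Each of the 10 genes was a single feature in the mm10 tables. The factors were Atf4 at chr15:80255184-80257545, Ddit3 at chr10:127290793-127296291, Atf5 at chr7:44812256-44816658 and Cebpb at chr2:167688915-167690432. The effectors and regulators were Trib3 at chr2:152337425-152344060, Chac1 at chr2:119351242-119354326, Sesn2 at chr4:132492804-132510456, Nupr1 at chr7:126623246-126625470 and Asns at chr6:7675165-7693182. The feedback gene Ppp1r15a lay at chr7:45522917-45526268. Promoter sequences for all 10 genes, 11 promoters in all, were taken from RefSeq on GRCm38.p6 and searched on both strands over the 250 bases before the start. The letters TGATGNAA, the core of the C/EBP-ATF response element bound by ATF4 dimers, were found in 3 of the 11 promoters (27.3%), those of Chac1, Asns and Nupr1, against 3.45% of 32851 mouse promoters searched the same way. The letters TGACGTCA, the full cyclic AMP response element, were found in the promoter of Ppp1r15a, against 1.55% of all promoters. These 4 stretches are shown because they carry the only matches before the start, and positions count back from the first transcribed base. The capitals mark the match, which in Chac1 and Nupr1 lies on the other strand and therefore reads as the reverse complement.
Chac1, chr2:119351019-119351086, plus strand, -223 to -156: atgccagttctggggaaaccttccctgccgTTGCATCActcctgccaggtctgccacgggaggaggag
Asns, chr6:7693210-7693262, minus strand, -53 to -1: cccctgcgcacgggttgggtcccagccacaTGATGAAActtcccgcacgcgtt
Nupr1, chr7:126625543-126625610, minus strand, -140 to -73: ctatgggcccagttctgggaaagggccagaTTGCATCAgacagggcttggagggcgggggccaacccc
Ppp1r15a, chr7:45526269-45526310, minus strand, -42 to -1: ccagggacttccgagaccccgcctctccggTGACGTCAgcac
A match is a run of letters and does not show that a factor bound there. Trib3 had a C/EBP-ATF match at position 15 after the start, which is outside the 250 bases counted. Among tested genes with a RefSeq promoter, the members included, 246 had a match before the start in the nifedipine comparison. Of these, 34.1% were called higher with nifedipine and 17.1% lower, against 25.7% and 25.4% of 9563 tested genes without one. After 5-FU, 20.5% of 259 genes with a match were called higher and 25.9% lower, against 27.5% and 24.0% of 9932 genes without one.

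Total exon reads per library were 9775640 to 17397392 in 5-FU day4, 6171730 to 16685285 in Untreated, 17582453 to 22372771 in Nifedipine and 20145079 to 26673045 in Control. Levels are CPM (exon reads scaled to a common library size) after TMM scaling of all 15 libraries together. HSC markers were present in every group: the summed level of 10 such genes was 3204 to 3482 CPM in 5-FU day4, 4568 to 4843 CPM in Untreated, 2239 to 2509 CPM in Nifedipine and 1427 to 1501 CPM in Control. Granulocyte markers summed to at most 18.8 CPM in any library. Stromal markers were uneven among the fresh libraries, at 11.6 to 407 CPM in 5-FU day4, where replicate 4 was highest. In Untreated they were at 19.6 to 1749 CPM, where replicate 2 was highest and replicate 3 lowest. Untreated 3 stood apart from the other Untreated libraries in mitosis genes, at 672 CPM against 154 to 311 CPM. No label ties a library to its own mouse or dish, and the p-values therefore weigh changes against the variation among these libraries alone. A gene was called higher or lower at an adjusted p of 0.05 or less in edgeR's quasi-likelihood F test with Benjamini-Hochberg adjustment over all tested genes, and every adjusted p below comes from that test. These are bulk libraries, so fewer cells expressing a gene and less RNA per cell cannot be told apart.

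**Figure D1:**
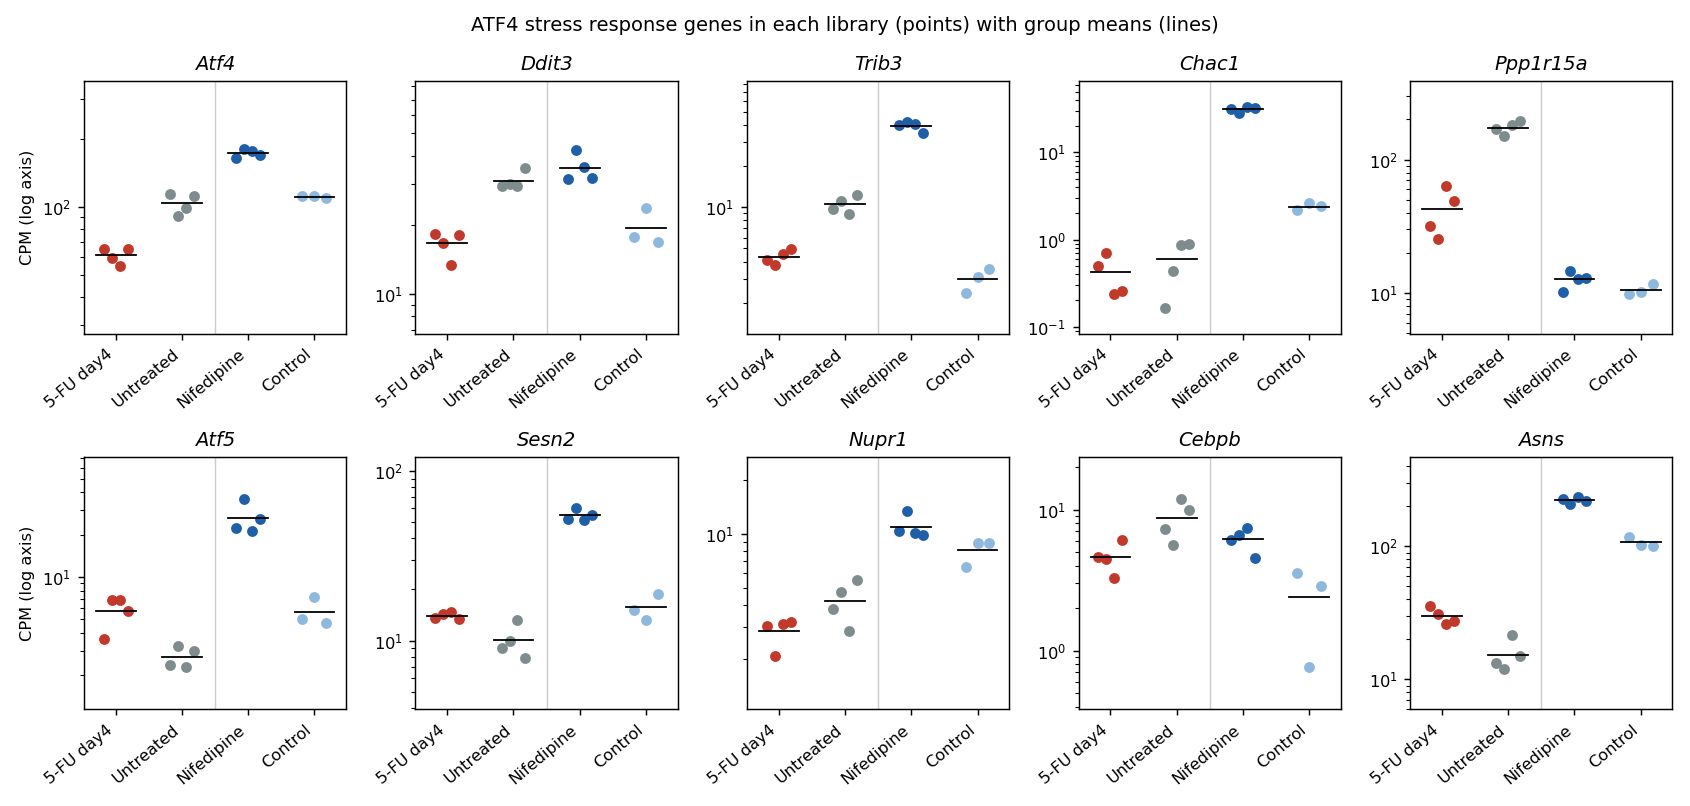
Level of each of the 10 genes in CPM on a log axis, with 1 point per library and a line at the group mean, in 5-FU day4, Untreated, Nifedipine and Control HSCs. The Nifedipine points lie above all other groups for Atf4, Trib3, Chac1, Atf5, Sesn2, Nupr1 and Asns, while Untreated is highest for Ppp1r15a.

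Atf4 was the most abundant of the factors. Per kilobase of exon, mean Atf4 was 35.4 CPM in 5-FU day4, 60.1 CPM in Untreated, 99.9 CPM in Nifedipine and 64.4 CPM in Control. Asns, which makes asparagine from aspartate and glutamine, came close to Atf4 in cultured cells, at 98.3 CPM per kilobase in Nifedipine and 47.4 CPM per kilobase in Control, but not in fresh ones, at 13.3 in 5-FU day4 and 6.80 in Untreated. In Untreated cells the highest level per kilobase was that of Ppp1r15a, at 74.5 CPM, and the lowest that of Chac1, at 0.377 CPM. Chac1 was thus the least abundant member in fresh HSCs, with 24 reads over the 4 libraries of 5-FU day4 and 35 over the 4 of Untreated.

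With nifedipine, 8 of the 10 genes rose and none fell, while 25.8% of 12805 tested genes were called higher and 24.2% lower (49.9% either way). The median log2 fold change of the 10 was 1.20, against 0.02 over all tested genes. For 9 of the 10, all Nifedipine libraries lay above all Control libraries, as they did for 25.9% of all tested genes. The largest changes were in Trib3 and Chac1, and Ppp1r15a and Nupr1 did not pass the test.

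Among the factors, Atf4 was at 165, 180.5, 176 and 169 CPM in Nifedipine, against 112, 112 and 109 CPM in Control. The groups were far apart beside their spread, and the log2 fold change was 0.63 (SE 0.066, adjusted p = 3.65e-07). Ddit3, which encodes the C/EBP family factor CHOP, was at 31.6, 42.2, 35.7 and 32.0 CPM in Nifedipine, against 17.7, 23.7 and 16.9 CPM in Control. It rose by 0.86 (SE 0.14, adjusted p = 6.83e-05), with no overlap. Atf5, a bZIP factor whose translation is controlled in a like manner, was at 22.2, 35.8, 21.2 and 25.8 CPM in Nifedipine, against 4.99, 7.19 and 4.69 CPM in Control. All Nifedipine libraries were well above all Control libraries, with a log2 fold change of 2.22 (SE 0.21, adjusted p = 9.13e-08). Cebpb, a C/EBP factor, was at 6.13, 6.62, 7.38 and 4.53 CPM in Nifedipine, against 3.55, 0.762 and 2.87 CPM in Control. Control 2 was the low library, and the log2 fold change was 1.35 (SE 0.39, adjusted p = 0.00798).

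The effectors moved over a wider range. Trib3, a pseudokinase that binds ATF4 and CHOP, was at 39.9, 41.9, 40.6 and 35.0 CPM in Nifedipine, against 2.37, 3.10 and 3.55 CPM in Control. It rose 13.2-fold (log2 fold change 3.72, SE 0.16, adjusted p = 1.17e-11). Chac1, an enzyme that breaks down glutathione, was at 31.5, 28.0, 33.0 and 32.6 CPM in Nifedipine, against 2.16, 2.61 and 2.40 CPM in Control. Its rise was 13.1-fold (log2 fold change 3.71, SE 0.16, adjusted p = 1.14e-11). Both genes were low in every Control library and high in every Nifedipine library.

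Sesn2, a leucine-binding inhibitor of mTORC1 signalling, was at 52.2, 60.5, 51.3 and 55.2 CPM in Nifedipine, against 15.1, 13.2 and 18.8 CPM in Control (log2 fold change 1.80, SE 0.12, adjusted p = 2.67e-09). Asns was at 226, 209, 236 and 218 CPM in Nifedipine, against 117, 103 and 102 CPM in Control (log2 fold change 1.05, SE 0.072, adjusted p = 2.55e-09). Neither gene had overlapping groups. Nupr1, a small chromatin protein induced by stress, was at 10.3, 13.5, 10.1 and 9.80 CPM in Nifedipine, against 6.51, 8.82 and 8.87 CPM in Control. Its groups did not overlap but its log2 fold change of 0.44 missed the threshold (SE 0.19, adjusted p = 0.0706), and passed it without TMM scaling (adjusted p = 0.0337). Ppp1r15a, which encodes GADD34 and recruits protein phosphatase 1 to remove the phosphate from eIF2alpha, was at 10.2, 14.8, 12.8 and 13.05 CPM in Nifedipine, against 9.94, 10.1 and 11.7 CPM in Control. Its groups overlapped, and its log2 fold change was 0.26 (SE 0.17, adjusted p = 0.231). Other marker genes moved with nifedipine too. Mitosis genes summed to 1889 to 2172 CPM in Nifedipine, against 2922 to 3081 CPM in Control, with 6 of 10 called lower and 1 higher. Megakaryocyte markers summed to 242 to 398 CPM in Nifedipine, against 388 to 577 CPM in Control, with 4 of 6 tested genes called lower and none higher. Itga2b, an integrin subunit of platelets and their precursors, named here after its values were seen, was at 16.9 ± 0.478 CPM in Nifedipine (SD, n = 4), against 95.4 ± 27.2 CPM in Control (SD, n = 3). All 3 tested erythroid markers were called lower, and of the 10 HSC markers 7 were called higher and 2 lower. Stromal markers were at most 17.7 CPM in Nifedipine and 10.4 CPM in Control. The part of these marker changes in the differences above was not tested.

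After 5-FU the 10 genes split. Of the 9 that could be tested, 5 fell (Atf4, Ddit3, Trib3, Ppp1r15a and Cebpb), 3 rose (Atf5, Sesn2 and Asns) and Nupr1 did not pass, where 23.8% of 13382 tested genes were called lower and 26.8% higher (50.5% either way). The median log2 fold change of the 9 was -0.76, against -0.02 over all tested genes. Chac1 was below the filter on low counts, at 0.500, 0.693, 0.235 and 0.256 CPM in 5-FU day4 and 0.166, 0.440, 0.857 and 0.900 CPM in Untreated, so that a difference was not detectable at this depth. Without Untreated 3 and 5-FU day4 4 together, a choice made after seeing the data, the counts were again 5 lower and 3 higher. That fit kept Untreated 2, the Untreated library highest in stromal markers, so it does not show the counts without it. In the separate fit that left out Untreated 2 alone, Sesn2 missed the threshold, so the 3 higher calls did not all hold there.

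Atf4 was at 65.1, 59.7, 55.1 and 65.0 CPM in 5-FU day4, against 114, 91.0, 99.2 and 112 CPM in Untreated. All 5-FU day4 libraries were below all Untreated libraries, with a log2 fold change of -0.76 (SE 0.086, adjusted p = 5.1e-05). Ddit3 was at 18.2, 16.6, 13.4 and 18.2 CPM in 5-FU day4, against 29.6, 30.2, 29.4 and 35.3 CPM in Untreated. It also fell without overlap (log2 fold change -0.90, SE 0.12, adjusted p = 0.000178). Trib3 was at 4.11, 3.76, 4.52 and 4.92 CPM in 5-FU day4, against 9.66, 11.2, 8.91 and 12.2 CPM in Untreated (log2 fold change -1.26, SE 0.18, adjusted p = 0.000251). Cebpb was at 4.61, 4.45, 3.29 and 6.14 CPM in 5-FU day4, against 7.34, 5.58, 11.9 and 9.97 CPM in Untreated. Its groups overlapped, since 5-FU day4 4 was above Untreated 2, and the call on its log2 fold change of -0.91 (SE 0.28, adjusted p = 0.0183) was lost without Untreated 3 (adjusted p = 0.0501).

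Ppp1r15a had the largest fall of the 9, at 32.0, 25.4, 63.3 and 48.8 CPM in 5-FU day4, against 171, 149.6, 181 and 193 CPM in Untreated. The log2 fold change was -2.02 (SE 0.23, adjusted p = 5.13e-05), and the 5-FU day4 libraries varied more around their mean (coefficient of variation 40.3%) than the Untreated ones (10.7%). Immediate early genes, which are induced by cell handling as well as by mitogens and stress, moved with it. Their summed level, over 10 genes such as Fos, Jun and Egr1, was 508 to 1258 CPM in 5-FU day4, against 2483 to 4084 CPM in Untreated, and 9 of the 10 were called lower. Within 5-FU day4, replicate 3 was highest and replicate 2 lowest for both the sum and Ppp1r15a, and within Untreated, replicate 4 was highest and replicate 2 lowest for both. In culture the sum was 103 to 146 CPM in Nifedipine and 59.0 to 72.0 CPM in Control, with 5 of 9 tested genes called higher. Within Control, replicate 3 was highest and replicate 1 lowest for both the sum and Ppp1r15a. Within Nifedipine, replicate 1 was lowest for both, but the sum was highest in replicate 4 and Ppp1r15a in replicate 2. The part of cell handling in the Ppp1r15a levels was not tested.

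**Figure D2:**
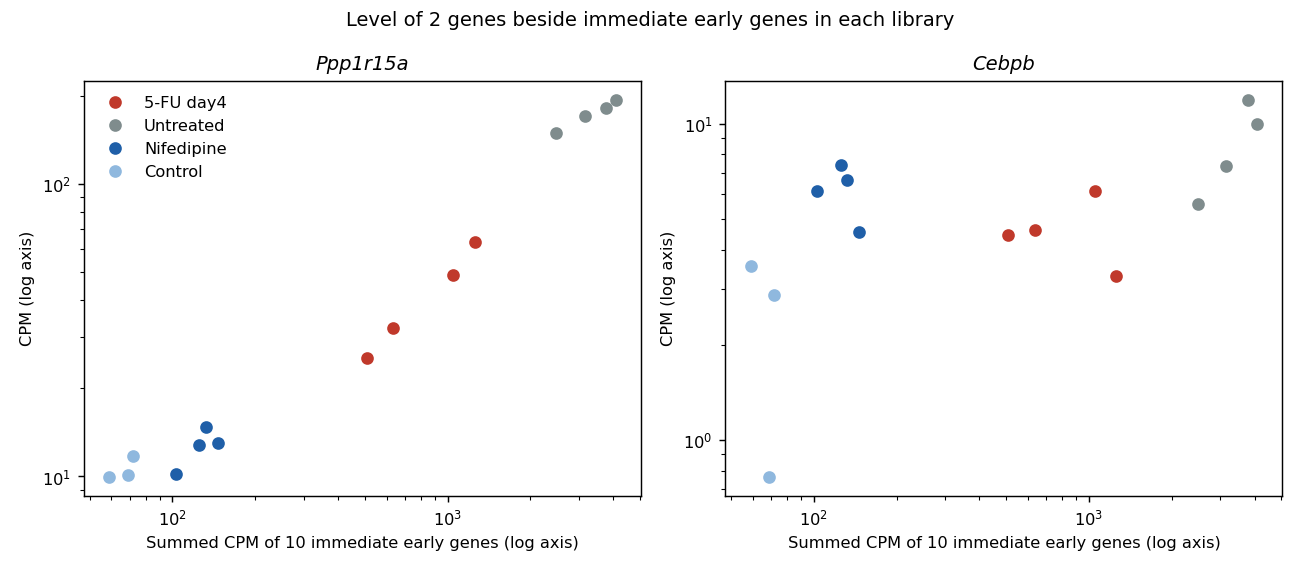
Level of Ppp1r15a (left) and Cebpb (right) in CPM against the summed CPM of 10 immediate early genes, both on log axes, with 1 point per library coloured by group. Untreated has the highest sum and the highest Ppp1r15a, followed by 5-FU day4, Nifedipine and Control, whereas Cebpb in Nifedipine, at 4.53 to 7.38 CPM, is within the range of the fresh cells.

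Asns, Atf5 and Sesn2 rose after 5-FU. Asns was at 35.4, 31.0, 26.1 and 27.6 CPM in 5-FU day4, against 13.2, 11.9, 21.4 and 14.98 CPM in Untreated (log2 fold change 0.96, SE 0.18, adjusted p = 0.00128). Atf5 was at 3.61, 6.83, 6.87 and 5.69 CPM in 5-FU day4, against 2.37, 3.23, 2.29 and 2.96 CPM in Untreated (log2 fold change 1.10, SE 0.28, adjusted p = 0.00726). In both, every 5-FU day4 library was above every Untreated library. Sesn2 was at 13.5, 14.2, 14.7 and 13.4 CPM in 5-FU day4, against 9.05, 9.98, 13.3 and 7.84 CPM in Untreated. Its rise of 0.48 (SE 0.17, adjusted p = 0.0347) was the least firm: leaving out any single library other than Untreated 3 took the adjusted p to between 0.0525 and 0.086. Nupr1 was at 3.05, 2.08, 3.11 and 3.20 CPM in 5-FU day4, against 3.81, 4.70, 2.86 and 5.53 CPM in Untreated, and its log2 fold change was -0.54 (SE 0.29, adjusted p = 0.142). Mitosis genes summed to 2607 to 3023 CPM in 5-FU day4, against 154 to 672 CPM in Untreated, and all 10 were called higher. Other marker genes also moved after 5-FU. Of the 10 HSC markers, 6 were called lower. So were 6 of 8 tested endothelial markers, 2 of 8 stromal markers and 2 of 6 megakaryocyte markers. No gene of these 4 lists was called higher. Of 3 tested erythroid markers, 2 were called higher and 1 lower. The part of cell division and of these other marker changes in the 5-FU changes was not tested.

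**Figure D3:**
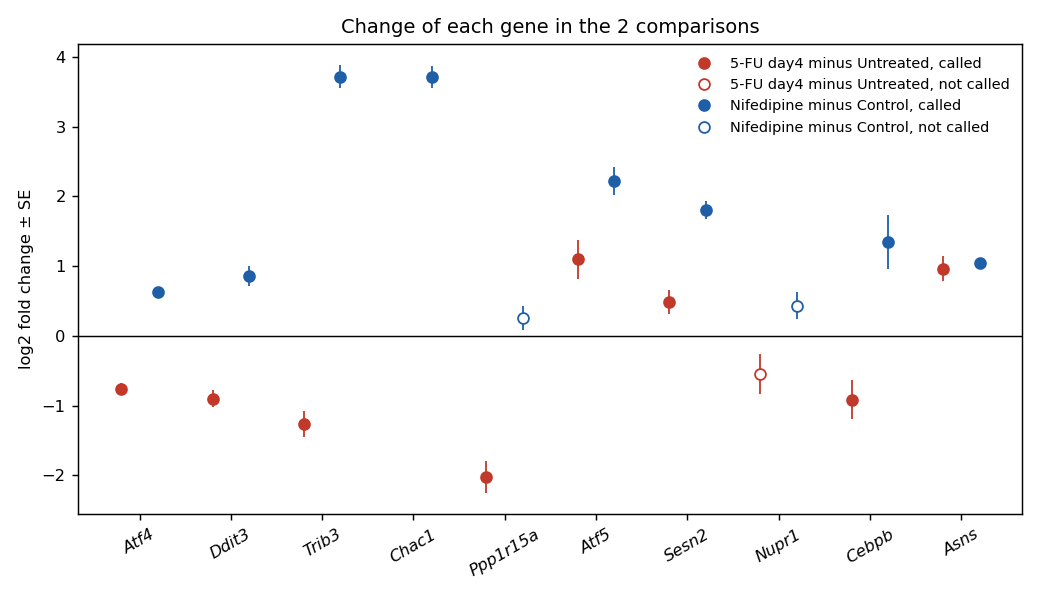
Log2 fold change with its SE for each gene, with 5-FU day4 minus Untreated in red and Nifedipine minus Control in blue. Filled points passed an adjusted p of 0.05 and open points did not, and Chac1 has no red point because it was not tested after 5-FU. Asns, Atf5 and Sesn2 are above 0 in both comparisons, while Atf4, Ddit3, Trib3 and Cebpb are on opposite sides with both points filled. Ppp1r15a and Nupr1 are also on opposite sides, but the blue point of Ppp1r15a and both points of Nupr1 are open.

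The nifedipine and 5-FU changes share no libraries, and their difference was tested in 1 fit of all 15. The change with nifedipine minus the change after 5-FU was called higher for 8 of the 9 genes tested in both comparisons and lower for none, where 29% of 14074 tested genes were called higher and 26.4% lower (55.3% either way). Chac1 is left out of this count, since it passed the filter on low counts through the cultured groups alone and its change after 5-FU could not be measured. The difference was 5.00 for Trib3 (adjusted p = 6.31e-11) and 1.42 for Atf4 (adjusted p = 9.23e-09). It was 2.30 for Ppp1r15a, 2.29 for Cebpb, 1.79 for Ddit3, 1.35 for Sesn2, 1.14 for Atf5 and 1.00 for Nupr1. Asns differed by 0.13 (SE 0.19, adjusted p = 0.591), so that its increments of 1.05 with nifedipine and 0.96 after 5-FU could not be told apart at this spread. The comparison sets cultured cells against fresh ones, so drug, culture and experiment cannot be told apart in it.

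Cultured Control and fresh Untreated cells themselves differed. Of the 10 genes, 5 were called higher, Chac1 among them, and 4 lower in Control than in Untreated. Over all 13518 tested genes, 35.8% were called higher and 36.2% lower (72% either way). Culture and experiment cannot be told apart here, and the comparison shares its libraries with both of those above. Marker genes differed too. Of the 10 HSC markers, 8 were called lower in Control and 1 higher. All 10 immediate early genes and all 8 tested stromal markers were called lower, and all 10 mitosis genes higher. Of 8 endothelial markers 7 were lower and 1 higher, and of 6 tested megakaryocyte markers 1 was lower and 3 higher. The part of these marker changes in the differences below was not tested. Ppp1r15a was 16.0-fold lower in Control, at 10.6 ± 0.987 CPM (SD, n = 3), than in Untreated, at 174 ± 18.6 CPM (SD, n = 4). Asns was 7.07-fold higher, at 107 ± 8.52 CPM in Control against 15.4 ± 4.22 CPM in Untreated. Trib3 was lower in Control by a log2 fold change of -1.77 (SE 0.24, adjusted p = 0.000118), and Cebpb by -1.82 and Ddit3 by -0.64. Atf5 was higher by 1.10, Nupr1 by 0.97 and Sesn2 by 0.68. Atf4 itself was 111 ± 1.72 CPM in Control against 104 ± 10.8 CPM in Untreated, with overlapping groups and a log2 fold change of 0.13 (SE 0.083, adjusted p = 0.183) whose sign turned without TMM scaling (-0.18). The Chac1 test passed the filter on low counts through Control alone.

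The order of the 4 group means therefore differed by gene. Atf4 ran from Nifedipine through Control and Untreated to 5-FU day4, with Control and Untreated overlapping. Ddit3 ran from Nifedipine and Untreated, which overlapped, to Control and 5-FU day4, which also overlapped. Trib3 ran from Nifedipine through Untreated and 5-FU day4 to Control, and Asns from Nifedipine through Control and 5-FU day4 to Untreated, with no overlap at any step in either gene. All neighbouring groups overlapped for Cebpb.

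The rest of the pathway was read from 7 lists of 91 genes. Over all tested genes, 25.8% were called higher and 24.2% lower with nifedipine, and 26.8% and 23.8% after 5-FU. Their median log2 fold change was 0.02 with nifedipine and -0.02 after 5-FU. The difference of the 2 changes was called higher for 29% and lower for 26.4%. The list counts and medians below are to be read beside these values. The eIF2alpha kinases moved little. With nifedipine, 1 of the 4 rose, Eif2ak3 (PERK, which senses unfolded protein), at 40.5 ± 3.26 CPM in Nifedipine against 30.1 ± 5.76 CPM in Control (log2 fold change 0.42, adjusted p = 0.0098). Eif2ak1 (HRI, the haem-regulated kinase) fell by 0.39, Eif2ak2 (PKR) by 0.31 and Eif2ak4 (GCN2, which senses uncharged tRNA) by 0.24. After 5-FU, Eif2ak4, Eif2ak1 and Eif2ak2 fell, each by 0.22 to 0.28, and Eif2ak3 had a log2 fold change of -0.09. None of those 3 falls was called when the read total behind the deposited RPKM values was used in place of TMM scaling.

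Subunits of eIF2, of its exchange factor eIF2B and of the eIF2alpha phosphatase went opposite ways in the 2 comparisons. With nifedipine, 11 of 12 fell and none rose (median -0.57), among them Eif2b5, a catalytic subunit of eIF2B, at 44.1 ± 2.07 CPM in Nifedipine against 76.8 ± 4.07 CPM in Control. After 5-FU, 9 of 12 rose and none fell (median 0.47), led by Eif2s1, which encodes eIF2alpha, at 147 ± 6.70 CPM in 5-FU day4 against 76.8 ± 10.3 CPM in Untreated. The difference of the 2 changes was called lower for all 12. Ppp1r15b, the constitutive counterpart of Ppp1r15a, fell by 0.40 with nifedipine and rose by 0.37 after 5-FU.

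Among partners and related bZIP factors, 4 of 8 rose with nifedipine and none fell, led by Jdp2, a bZIP repressor, at 33.7 ± 4.20 CPM in Nifedipine against 10.3 ± 1.42 CPM in Control. Cebpg, a C/EBP partner of ATF4, had a log2 fold change of 0.17 with nifedipine (adjusted p = 0.0986) and rose by 0.51 after 5-FU. Atf3, a stress-induced bZIP repressor, was low throughout, at 0.368 ± 0.218 CPM in Nifedipine, 0.289 ± 0.429 CPM in Control, 0.280 ± 0.332 CPM in 5-FU day4 and 2.25 ± 1.81 CPM in Untreated. After 5-FU, 1 of 9 genes of this list rose and 3 fell, with Atf3, whose groups overlapped near the floor, among the 3. With a filter of at least 10 CPM on average, 1 of 6 tested rose and 2 fell after 5-FU.

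Amino acid and one-carbon targets rose in 14 of 19 cases with nifedipine and none fell (median 0.68). The 19 include genes near the floor in Control, such as Cth, at 0.357 CPM. With a filter of at least 10 CPM on average, 13 of 17 tested rose and none fell (median 0.54). Slc7a11, the cystine transporter, was at 453 ± 46.9 CPM in Nifedipine against 42.7 ± 5.19 CPM in Control (log2 fold change 3.40). Slc7a3, a cationic amino acid transporter, was at 27.9 ± 5.13 CPM in Nifedipine against 1.25 ± 0.295 CPM in Control, and Gpt2, a mitochondrial alanine aminotransferase, at 50.2 ± 3.64 CPM against 8.31 ± 1.75 CPM. After 5-FU 8 of 17 rose and none fell (median 0.55), led by the mitochondrial folate enzyme Mthfd2 at 2.30, the serine synthesis enzyme Psat1 at 1.52 and the leucine transporter Slc7a5 at 1.52. In the test of the difference, 8 of the 19 were called higher and 7 lower. Slc7a3 and Cth are among the 19 but were below the filter on low counts after 5-FU. The change of these genes after 5-FU could not be measured.

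Of the tRNA synthetase and export list, 1 of 13 rose with nifedipine (Cars, log2 fold change 0.52) and 5 fell (median -0.12), with Wars at -0.33 and Tars at -0.25. Only 1 was called lower without TMM scaling, and 1 with the RPKM read total. After 5-FU all 13 rose (median 0.63), with Gars at 1.03, Aars at 0.98 and Mars at 0.83. The difference of the changes was called lower for 10 of the 13 and higher for none.

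Of the other stress targets of ATF4, 14 of 17 rose with nifedipine and 1 fell (median 1.23), including the lipoprotein receptor Vldlr at 90.6 ± 3.84 CPM in Nifedipine against 12.2 ± 5.27 CPM in Control, Ddit4 (REDD1, an inhibitor of mTORC1) at 23.8 ± 4.83 CPM against 8.00 ± 2.52 CPM, and the growth factor Vegfa at 72.0 ± 6.87 CPM against 25.8 ± 1.59 CPM. With a filter of at least 10 CPM on average, 9 of 11 tested genes rose with nifedipine and 1 fell (median 0.80). The same filter gave 2 higher and 6 lower calls of 11 after 5-FU (median -0.30). Without that filter, 2 of 14 rose and 8 fell after 5-FU (median -0.48), including Vldlr at -1.60, Ddit4 at -1.36 and the cell death gene Bcl2l11 at -0.79. The difference was called higher for 13 of 17 and lower for 1. Those 17 include genes below the filter on low counts after 5-FU, where 14 were tested. The change of such genes after 5-FU could not be measured.

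Of genes of the unfolded protein response outside ATF4, 11 of 16 fell with nifedipine and 4 rose (median -0.49), among them the endoplasmic reticulum chaperones Hspa5, at 309 ± 23.5 CPM in Nifedipine against 591 ± 22.5 CPM in Control, Hyou1 at -0.87 and Hsp90b1 at -0.83. After 5-FU 10 of 16 rose and 2 fell (median 0.42), with Sdf2l1 at 1.33 and Creld2 at 1.08, while Dnajb9, a co-chaperone of Hspa5, fell by 1.09. The difference was called lower for 11 and higher for 3. Over all 7 lists, nifedipine gave 38 higher (42.7%) and 31 lower (34.8%) calls of 89 tested, against 25.8% and 24.2% of all tested genes. After 5-FU there were 43 higher (50.6%) and 16 lower (18.8%) calls of 85, against 26.8% and 23.8% of all tested genes.

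**Figure D4:**
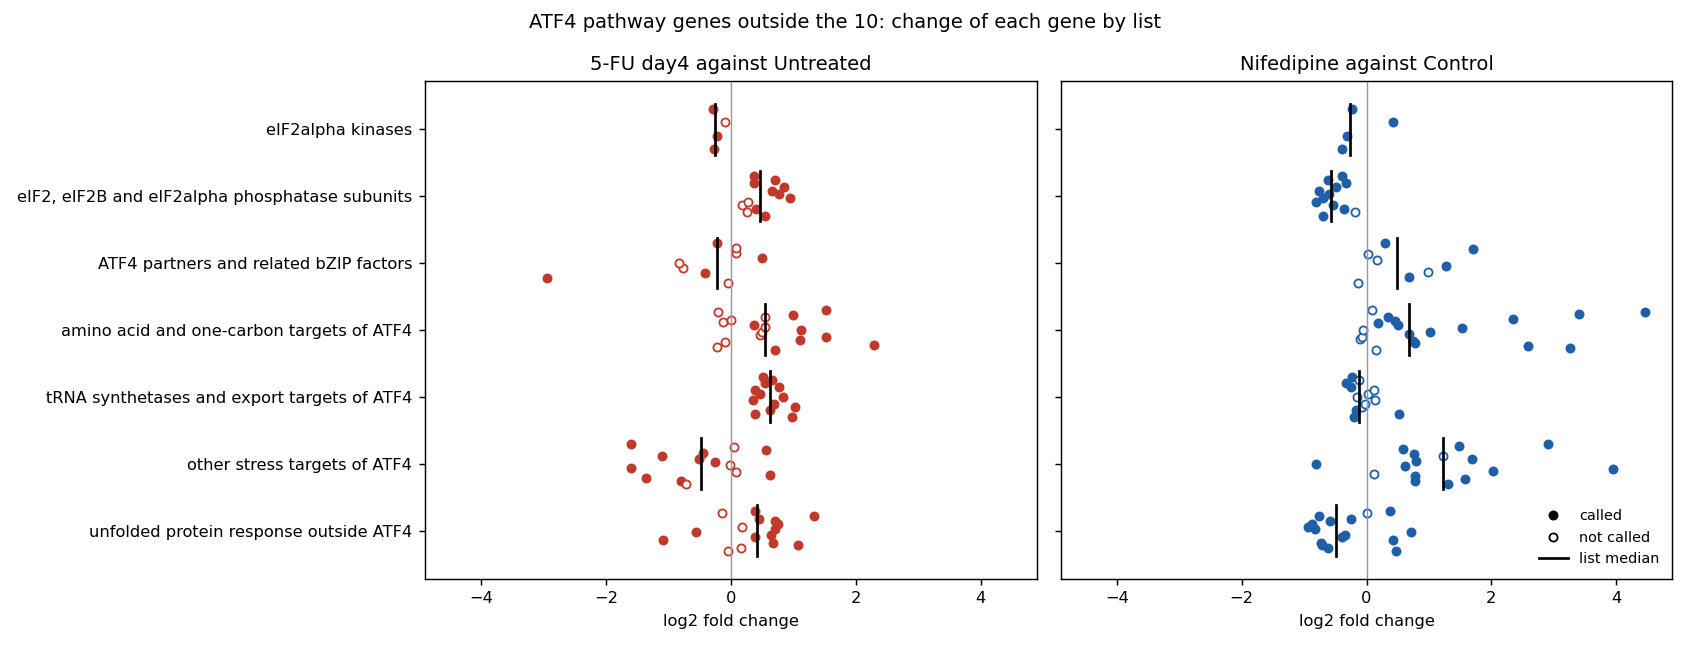
Log2 fold change of each tested gene in the 7 pathway lists after 5-FU (left, against Untreated) and with nifedipine (right, against Control), with filled points for called genes, open points for genes not called and a line at each list's median. The tRNA synthetase list has its median at 0.63 after 5-FU and -0.12 with nifedipine, and the other stress targets at -0.48 and 1.23.

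The genes whose pattern over the 15 libraries was closest to Atf4 were Asah1, Nt5dc1, Sqstm1, Atp6v0a1 and Tom1, by the root mean square difference of centred log2 CPM among 9158 genes with a mean of at least 10 CPM. That difference was 0.127 for Asah1, against 0.556 for a flat profile. Sqstm1, an autophagy receptor, was at 84.1 CPM in 5-FU day4, 115 CPM in Untreated, 211 CPM in Nifedipine and 125 CPM in Control on average. For Ddit3 the closest were Lyrm5, Mblac2, Flot1, Mfsd6 and Fchsd1, at 0.176 for Lyrm5 against 0.490 for a flat profile. For Chac1 the closest were Slc1a4, Nqo1, Creb5, Slc6a9 and Aldh1l2, at a looser 0.983 for Slc1a4 against 2.49 for a flat profile. Aldh1l2, a mitochondrial folate enzyme, was at 1.77 CPM in 5-FU day4, 0.413 CPM in Untreated, 79.1 CPM in Nifedipine and 1.70 CPM in Control.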

How the data were processed

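RNA-seq of 15 HSC libraries was analysed. Exon read counts and RPKM values were deposited by the authors as 1 table per library, per the file headers, with the genome build mm10 per the submitters' processing notes. No aligner or counter is named in these sources, and Nextera XT libraries, per the labels' protocols, do not keep strand, so reads of overlapping genes cannot be told apart. Scaffold copies of 1925 genes were added up, leaving 46118 genes. Counts were tested with edgeR 4.0.16 in R 4.3.3 (TMM, filterByExpr, quasi-likelihood F test, Benjamini-Hochberg over all tested genes, adjusted p of 0.05), and RPKM served only to recover the authors' read total as another scaling. The test was checked on simulated counts. Alternatives were DESeq2 1.42.0, other scalings and filters, all 4 groups in 1 fit, features as deposited, a replicate block and leaving out each library.

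The members and the pathway and marker lists were chosen with earlier results of these data known. From each pathway list, up to 3 called genes were eligible to be named, those with the largest change whose groups did not overlap and whose higher group averaged at least 10 CPM. Atf3, Ddit4, Cebpg, Ppp1r15b and the eIF2alpha kinases were always included. The 5 closest genes to Atf4, Ddit3 and Chac1 were taken by the same minimum, without predicted and clone names. Marker lists also covered erythroid, monocyte, lymphoid, megakaryocyte and endothelial cells. Endothelial markers summed to 190 to 252 CPM in 5-FU day4, 262 to 878 CPM in Untreated, 243 to 261 CPM in Nifedipine and 207 to 232 CPM in Control. Erythroid markers summed to 89.3 to 110 CPM in 5-FU day4, 73.4 to 1320 CPM in Untreated, 235 to 276 CPM in Nifedipine and 308 to 326 CPM in Control. Monocyte and macrophage markers summed to at most 63.1 CPM, T and NK cell markers to at most 36.3 CPM and B cell markers to at most 29.9 CPM in any library. After 5-FU, same-numbered libraries did not deviate together in every pair, whereas all 3 same-numbered pairs with nifedipine correlated positively. Replicate numbers were not treated as pairs in the main test, and the replicate block was run as an alternative.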

Additional observations from a re-analysis of the deposited data

Results flagged for a closer look

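Each of the 10 genes was examined in each of the 3 groups of 4 libraries for a library far from the rest, by the gap to its nearest neighbour over the range of the group. Of 30 sets, 3 passed Dixon's 95% critical value, where chance gives about 1 in 20. Nupr1 in 5-FU day4 2 was low at 2.08 CPM, against 3.05 to 3.20 CPM in the other 5-FU day4 libraries. Nupr1 in Nifedipine 2 was high at 13.5 CPM, against 9.80 to 10.3 CPM in the other Nifedipine libraries. Ddit3 in Untreated 4 was high at 35.3 CPM, against 29.4 to 30.2 CPM in the other Untreated libraries. Ddit3 kept its call after 5-FU without Untreated 4.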

How the results depend on the processing

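With nifedipine, the 8 higher calls among the 10 genes became 9 without TMM, where Nupr1 passed, and 7 with the 10 CPM filter, and stayed at 8 in number under the other alternatives. No alternative gave a lower call there. After 5-FU the 10 CPM filter gave 3 lower calls, against 5, and 2 higher calls, against 3. Control against Untreated gave 3 higher calls without TMM and 2 with the 10 CPM filter, against 5, and 2 lower calls with that filter, against 4. The filter tests fewer genes. Atf4 in Control against Untreated turned from 0.13 to -0.176 without TMM and -0.037 with the 10 CPM filter, and passed the threshold at 0.37 with the RPKM read total (adjusted p = 0.00265). The Asns difference between the nifedipine and 5-FU changes turned from 0.13 to -0.054 with the RPKM read total, and ran from -0.075 (without Untreated 3) to 0.22 (without 5-FU day4 1) over the fits that leave out 1 library, with -0.022 without Control 3. Those causes were not tested.

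Sesn2 after 5-FU was also lost without TMM (adjusted p = 0.0655) and with no filter (0.0524), Cebpb after 5-FU with the RPKM read total (0.0519). In Control against Untreated, Sesn2 was lost without TMM (0.141) and without Control 3 (0.0684), and Nupr1 without TMM (0.0584). The Nupr1 difference was lost without Control 1 (0.0902). The replicate block gave 3 higher and 5 lower calls after 5-FU and 8 higher with nifedipine, and changed no call among the 10 genes. Correlations of same-numbered libraries were -0.144 to 0.179 after 5-FU and 0.0302 to 0.162 with nifedipine. Those of differently numbered libraries were -0.454 to 0.384 after 5-FU and -0.101 to 0.0916 with nifedipine. Scaling moved the median of all genes after 5-FU from -0.02 to 0.17 with the RPKM read total, and the higher share of calls from 52.93% to 73.68%. Without TMM the median was 0.11 with nifedipine (62.04% of calls higher, against 51.58%) and -0.36 in Control against Untreated (34.92%, against 49.76%), where the RPKM read total gave 0.19 (60.42%). For the difference the RPKM read total gave -0.08 (41.46%, against 52.32%).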
